A study of Capra hircus with 20 samples.

Results

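Sphingolipids are membrane lipids built on a ceramide, and in oligodendrocytes much of the ceramide receives a galactose or a phosphocholine head group to give the galactolipids and sphingomyelin of the myelin sheath. Ceramide is made in the endoplasmic reticulum by condensation of serine with palmitoyl-CoA, reduction, acylation and desaturation, and it can also be rebuilt from sphingosine and sphingosine-1-phosphate in the salvage route. The genes described here cover these steps in the goat hypothalamus. SPTLC1 and SPTLC2 encode subunits of serine palmitoyltransferase, the enzyme of the first step. CERS2 and CERS6 encode ceramide synthases that attach very long acyl chains and the shorter chains of the palmitate type, respectively, and DEGS1 encodes the desaturase that converts dihydroceramide to ceramide. UGT8 adds galactose to ceramide, FA2H hydroxylates the fatty acid of these lipids, and SGMS1 makes sphingomyelin. ASAH1 encodes acid ceramidase and SGPP1 a phosphatase of sphingosine-1-phosphate. The 10 genes were chosen by symbol for these roles, matched by NCBI Gene ID in the goat annotation ARS1.2, and all 10 were found among the 21071 genes with values.

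The libraries came from the hypothalamus of 20 female Jining grey goats kept under the same management, with no treatment or genetic change stated. There were 5 goats at each of 1 day (D1), 2 months (M2), 4 months (M4) and 6 months (M6) of age, and 1 strand-specific, rRNA-depleted library per goat. Values are FPKM, the fragments of a gene scaled by its exon length and the mapped reads of the library, as calculated by the authors. The FPKM values of a library summed to between 260199 and 377479, and how many reads stand behind a value is unknown.

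Libraries of one stage differed in their cell type markers, and 4 libraries stood apart in the myelin mean. The mean log2(FPKM + 0.1) of 10 mature myelin genes was 5.13 in D1 replicate 4, 4.34 in M4 replicate 1, 5.42 in M4 replicate 2 and 5.13 in M6 replicate 4. In the other 16 libraries it lay between 6.40 and 8.74. Hypothalamic markers were low in many libraries. OXT reached at least 1 FPKM in 8 of the 20 libraries, AVP in 13, HCRT in 6, PMCH in 9, NKX2-1 in 7, SIM1 in 7, OTP in 5 and GHRH in 0, and the sum of these 8 genes ran from 0.854 to 906. M4 replicate 1 held the highest sum of 4 telencephalic markers, at 62.9 FPKM against at most 26.8 elsewhere, and the highest sum of 8 neuron markers, at 2759. M6 replicate 3, the library with the highest myelin mean, held the lowest sum of these neuron markers, at 80.2 FPKM against at least 249.6 elsewhere. The 4 anterior pituitary markers summed to at most 1.58 FPKM in any library. In bulk tissue, fewer cells of a type and less RNA per cell cannot be told apart. The stage comparisons of the 10 genes, the ratio UGT8 over SGMS1 and the correlations are therefore given with and without the 4 libraries lowest in the myelin mean. This set was picked once the values of the libraries were known. The levels, variance shares and most similar genes are given over the 20 libraries only.

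On the FPKM scale, which corrects for gene length, UGT8 had by far the highest level of the 10 genes and FA2H the lowest. The mean over the 20 libraries was 297.5 FPKM for UGT8, followed by CERS2 (61.5), SPTLC1 (49.8), ASAH1 (35.2), DEGS1 (34.9), SGPP1 (30.4), SPTLC2 (22.6), SGMS1 (18.6), CERS6 (17.9) and FA2H (5.33). UGT8 was above CERS2 in 20 of 20 libraries, with a mean difference of 2.03 ± 0.52 on the log2 scale (SD, n = 20). For several neighbours in this order the mean log2 difference was smaller than its SD over the libraries. CERS2 lay above SPTLC1 in 15 of 20 libraries, with a mean log2 difference of 0.011 ± 1.09. It lay below SPTLC1 in the 4 libraries lowest in the myelin mean and in M2 replicate 4. ASAH1 lay above DEGS1 in 11 libraries (0.054 ± 0.47), and SGMS1 above CERS6 in 10 (0.13 ± 0.92). The mean difference was also smaller than its SD for DEGS1 over SGPP1 and for SPTLC2 over SGMS1, although the first gene was higher in 14 and 17 of the 20 libraries.

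**Figure D1:**
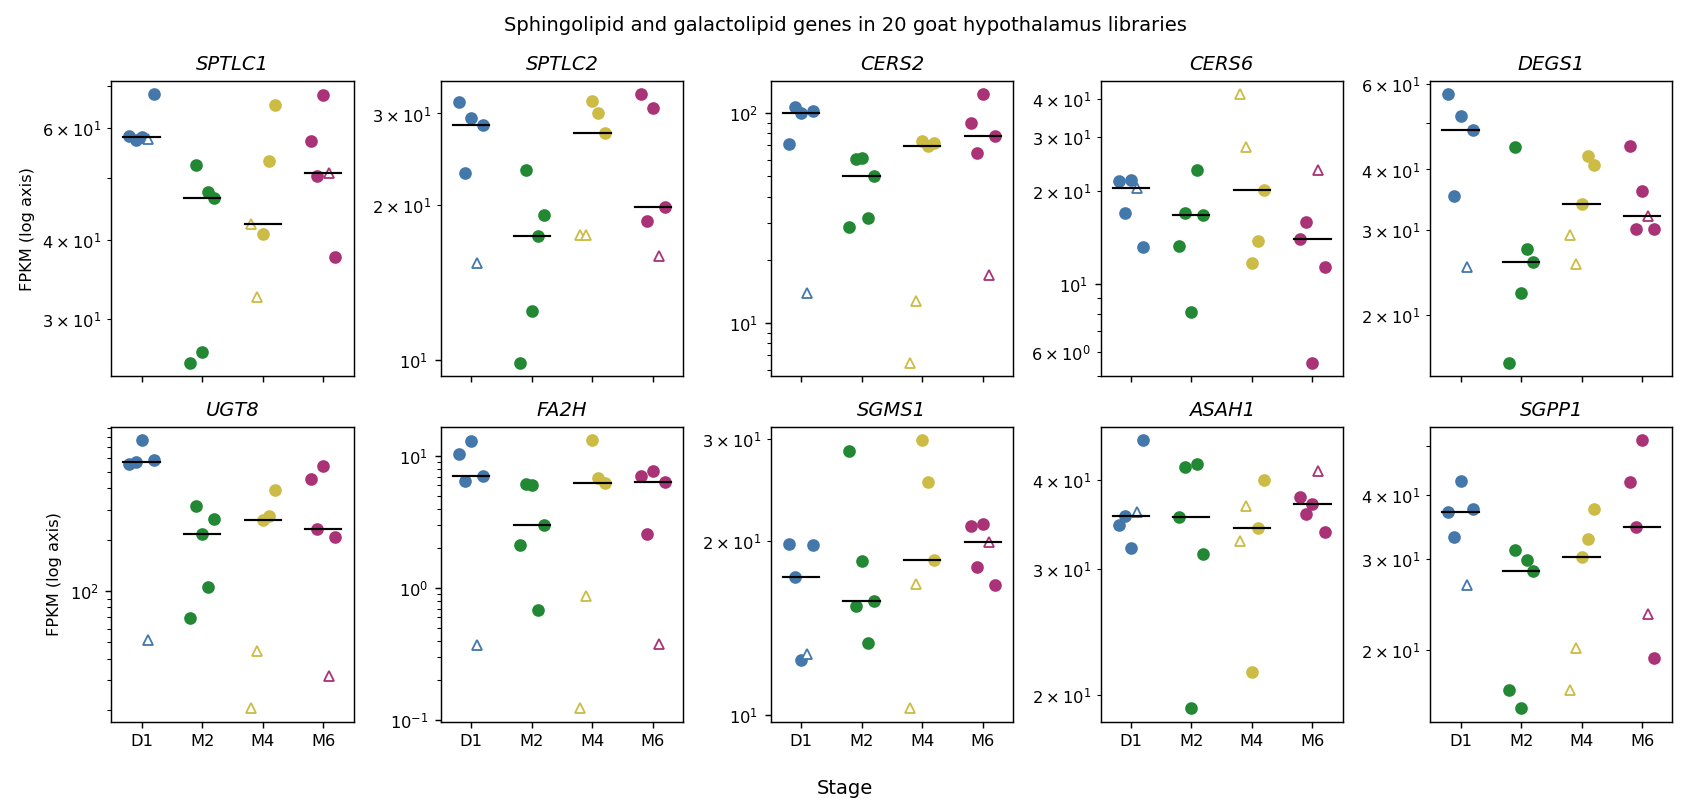
FPKM of each of the 10 genes (vertical log axis, a separate scale per panel) in the 20 libraries by stage, with 1 point per library in replicate order and a bar at the stage median. Open triangles mark the 4 libraries lowest in the myelin mean, which hold the 4 lowest values of UGT8 and CERS2 and 3 of the 4 lowest of FA2H.

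SPTLC1 and SPTLC2, which together form the catalytic core of serine palmitoyltransferase, were lowest on average at M2. SPTLC1 (chr8:85528984-85594457) had 58.3, 57.5, 58.2, 57.7 and 67.8 FPKM in the D1 libraries and 25.6, 52.5, 26.7, 47.6 and 46.6 in the M2 libraries, in replicate order. The values were 42.4, 32.5, 40.9, 53.2 and 65.2 at M4 and 57.2, 50.4, 67.6, 50.9 and 37.6 at M6. All 5 M2 values lay below all 5 D1 values, and 2 of the M2 libraries were at less than the lowest value of any other stage. The same gap between all D1 and all M2 libraries, with M2 lower, was found for 2.32% of the 16771 genes tested, and SPTLC1 was the only one of the 10 genes with it. The means were 59.9 ± 4.43, 39.8 ± 12.7, 46.9 ± 12.6 and 52.8 ± 10.9 from D1 to M6 (SD, n = 5).

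SPTLC2 (chr10:14304070-14406615) had 31.5, 23.1, 29.4, 15.4 and 28.5 FPKM at D1 and 9.88, 23.4, 12.4, 17.4 and 19.1 at M2. It had 17.4, 17.4, 31.7, 30.1 and 27.6 at M4 and 32.7, 18.6, 30.8, 15.9 and 19.8 at M6. Every pair of stages overlapped, and the lowest D1 and M6 values came from libraries low in the myelin mean. The mean was 25.6 ± 6.50, 16.4 ± 5.36, 24.9 ± 6.92 and 23.5 ± 7.62 from D1 to M6 (SD, n = 5). The annotation places 3 other genes in overlap with SPTLC2. The libraries keep the strand, but whether the quantification used it is not given in the sources used here, so a share of reads from these genes cannot be told apart from its own.

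CERS2, the ceramide synthase of very long acyl chains that are abundant in myelin, varied 18.98-fold over the libraries. CERS2 (chr3:100362738-100377667, overlapping SETDB1) had 71.4, 106.7, 100.4, 13.9 and 101.7 FPKM at D1 and 28.6, 60.4, 61.1, 31.7 and 50.1 at M2. It had 6.45, 12.7, 73.3, 69.4 and 72.3 at M4 and 89.6, 64.2, 122.5, 16.9 and 77.4 at M6. The 4 lowest values came from the 4 libraries lowest in the myelin mean, and the remaining D1 libraries lay above all 5 M2 libraries. The stage means were 78.8 ± 38.8, 46.4 ± 15.5, 46.8 ± 34.1 and 74.1 ± 38.6 from D1 to M6 (SD, n = 5).

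CERS6, which prefers shorter acyl chains, took a different course across the libraries. CERS6 (chr2:108578187-108927025) had 21.5, 16.9, 21.7, 20.5 and 13.1 FPKM at D1 and 13.2, 17.0, 8.09, 23.4 and 16.7 at M2. It had 41.3, 27.9, 11.7, 13.8 and 20.2 at M4 and 14.0, 15.9, 5.53, 23.5 and 11.4 at M6. The highest values of M4 and M6 came from libraries where CERS2 was lowest, and the lowest value of all, in M6 replicate 3, came from the library where CERS2 was highest. Stage means were 18.8 ± 3.68, 15.7 ± 5.62, 23.0 ± 12.02 and 14.1 ± 6.57 from D1 to M6 (SD, n = 5).

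DEGS1, the last enzyme of ceramide synthesis from serine, was also lowest on average at M2. DEGS1 (chr16:25857736-25867324) had 57.2, 35.2, 51.6, 25.1 and 48.3 FPKM at D1 and 15.9, 44.6, 22.2, 27.3 and 25.8 at M2. It had 29.2, 25.4, 33.9, 42.6 and 40.8 at M4 and 44.6, 30.1, 36.05, 32.1 and 30.1 at M6. D1 and M2 overlapped through M2 replicate 2 at 44.6 and D1 replicate 4 at 25.1. The mean was 43.5 ± 13.1, 27.2 ± 10.7, 34.4 ± 7.34 and 34.6 ± 6.11 from D1 to M6 (SD, n = 5).

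UGT8, the galactosyltransferase that makes galactosylceramide, varied 37.5-fold over the libraries. UGT8 (chr6:11268249-11381008) had 551.1, 567.5, 766.5, 51.5 and 586.8 FPKM at D1 and 69.8, 316.2, 216.1, 105.5 and 263.4 at M2. It had 20.5, 44.6, 260.5, 276.7 and 388.4 at M4 and 454.3, 230.1, 543.0, 31.8 and 205.8 at M6. In D1, 4 of the 5 libraries exceeded every library of the later stages, while D1 replicate 4 was under all but 3 of them. Means were 504.7 ± 267.7, 194.2 ± 104.3, 198.1 ± 159.2 and 293.0 ± 205.1 from D1 to M6 (SD, n = 5).

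FA2H, whose product puts the hydroxyl group on the fatty acid of myelin galactolipids, spread widest of the 10 genes. FA2H (chr18:3385413-3440314) had 10.4, 6.46, 13.1, 0.374 and 7.02 FPKM at D1 and 2.13, 6.15, 6.01, 0.676 and 2.99 at M2. It had 0.123, 0.867, 13.2, 6.82 and 6.23 at M4 and 7.07, 2.59, 7.67, 0.377 and 6.39 at M6. Both the lowest and the highest value of the 20 libraries were found at M4, a 108-fold range inside a single stage. The lowest, 0.123 in M4 replicate 1, is close to the filter limit of 0.1 FPKM, so the size of this range is uncertain. The mean was 7.46 ± 4.79, 3.59 ± 2.42, 5.45 ± 5.31 and 4.82 ± 3.18 from D1 to M6 (SD, n = 5).

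SGMS1, the sphingomyelin synthase of the Golgi, had no such range, at 10.3 to 29.9 FPKM. SGMS1 (chr26:42411237-42742077, overlapping an lncRNA gene) had 19.7, 17.3, 12.4, 12.8 and 19.7 at D1 and 28.7, 15.4, 18.5, 13.3 and 15.8 at M2. It had 10.3, 16.8, 29.9, 25.3 and 18.5 at M4 and 21.2, 18.03, 21.4, 19.9 and 16.8 at M6. All 4 stages overlapped, with means of 16.4 ± 3.59, 18.3 ± 6.06, 20.2 ± 7.63 and 19.5 ± 2.01 from D1 to M6 (SD, n = 5).

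In the salvage route, ASAH1 was the steadiest of the 10 genes and SGPP1 was intermediate. ASAH1 (chr27:26324136-26353014) had 34.5, 35.6, 32.1, 36.1 and 45.5 FPKM at D1 and 35.5, 41.7, 19.1, 42.1 and 31.5 at M2. It had 32.8, 36.8, 21.5, 34.3 and 39.9 at M4 and 37.9, 35.9, 37.0, 41.1 and 33.8 at M6. The means of the 4 stages lay close together, at 36.8 ± 5.11, 34.0 ± 9.42, 33.1 ± 6.995 and 37.1 ± 2.71 from D1 to M6 (SD, n = 5), and all stages overlapped. SGPP1 (chr10:27134837-27177851) had 37.1, 33.2, 42.7, 26.8 and 37.7 FPKM at D1 and 16.7, 31.2, 15.4, 29.9 and 28.5 at M2. It had 16.7, 20.2, 30.4, 32.9 and 37.6 at M4 and 42.5, 34.8, 51.3, 23.5 and 19.3 at M6. D1 and M2 overlapped through D1 replicate 4 at 26.8, and the stage means were 35.5 ± 5.92, 24.4 ± 7.66, 27.5 ± 8.78 and 34.3 ± 13.2 (SD, n = 5).

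The stages were compared to find whether the pathway differed between birth and sexual maturation. In M2 vs. D1, 9 of the 10 genes had a lower mean log2 value at M2, yet 0 passed the threshold of a Benjamini-Hochberg adjusted p under 0.05 in limma and a log2 fold change of at least 1 in either direction. Among all 16771 genes tested, 0% were called in this comparison, although 15.6% had an unadjusted p under 0.05. An unadjusted p under 0.05 was reached by 3 of the 10 genes, SPTLC1, SPTLC2 and DEGS1, all lower at M2. The log2 fold change was -0.65 (SE 0.23, adjusted p = 0.205) for SPTLC1, -0.66 (SE 0.28, adjusted p = 0.262) for SPTLC2 and -0.70 (SE 0.25, adjusted p = 0.218) for DEGS1 in limma. UGT8 had the lowest value, -1.16, but its 95% interval ran from -2.99 to 0.68 (adjusted p = 0.541). The median of the 10 genes was -0.62, against -0.07 for all genes tested. It was -0.59 for the 10 myelin genes, -0.54 for the 8 neuron markers (6 of them lower at M2) and 0.34 for the 6 microglia markers. The part of differences in myelin, neuron or other cell type transcripts in these values was not tested.

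The other comparisons called none of the 10 genes either. In M4 vs. D1, 0 of the 10 were called against 0.0537% of all genes, and 0 had an unadjusted p under 0.05 in limma. In M6 vs. D1 the count was 0 against 0.00596% of all genes, again with 0 at an unadjusted p under 0.05. M4 vs. M2, M6 vs. M2 and M6 vs. M4 had 0 called among the 10 and 0% among all genes. SPTLC2 in M4 vs. M2 was the sole unadjusted p under 0.05 there, with a log2 fold change of 0.61 (SE 0.28, limma adjusted p = 0.562). With M2, M4 and M6 pooled against D1, 0 of the 10 genes were called against 0.0596% of all genes, and 1, SPTLC1 at -0.42, had an unadjusted p under 0.05 (limma adjusted p = 0.387). UGT8 was at -1.21 in that comparison, with a 95% interval of -2.71 to 0.28. All comparisons with D1 share the 5 D1 libraries. In M2 vs. D1 the 95% interval reached beyond a log2 fold change of -1 for 8 of the 10 genes, all but SGMS1 and ASAH1, so a missing call does not show equal levels.

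**Figure D2:**
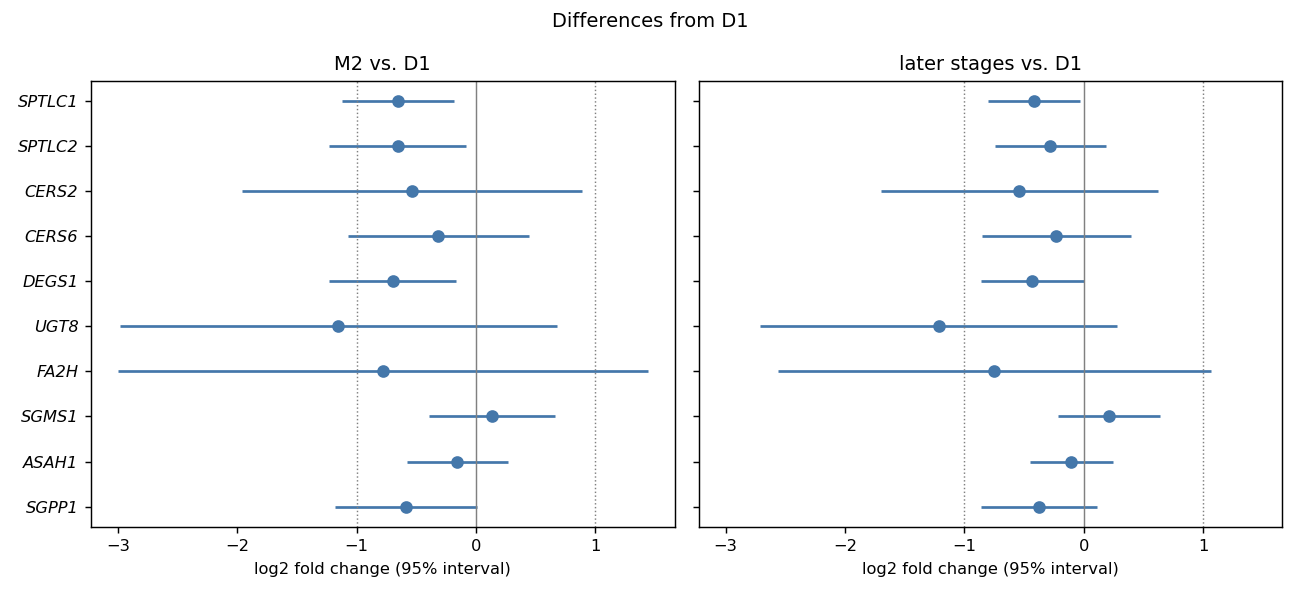
Log2 fold change of each gene from D1 to M2 (left) and from D1 to the mean of M2, M4 and M6 (right), with points for the limma estimate and lines for its 95% interval. Dotted lines mark the log2 threshold of 1 in each direction; the intervals of UGT8, FA2H and CERS2 are the widest and span 0, and that of SPTLC1 stays below 0 in both panels.

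Without the 4 libraries lowest in the myelin mean, several differences between D1 and M2 were larger and still short of the threshold of the test. These libraries hold the 4 lowest values of UGT8 and CERS2, and only D1 replicate 4 belongs to D1 or M2. D1 was thus left with 4 libraries, while M2 kept all 5. D1 replicate 4 was the lowest D1 library for each gene named below, so leaving it out had to move its log2 fold change downward. The values below are therefore a description. The remaining D1 libraries lay between 551.1 and 766.5 FPKM for UGT8, above the M2 range of 69.8 to 316.2. UGT8 then had a log2 fold change of -1.87 (SE 0.41, limma adjusted p = 0.0607) and CERS2 one of -1.09 (SE 0.25, adjusted p = 0.0624). FA2H was at -1.63 (adjusted p = 0.153), DEGS1 at -0.88 (0.109) and SPTLC2 at -0.83 (0.125) in the same limma fit. The unadjusted p was under 0.05 for 7 of the 10 genes and for 15.6% of all genes, and 0 of the 10 were called while 0.244% of all genes were.

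Ratios of genes within a library compare alternative steps of the pathway without the scale of the library. UGT8 over SGMS1 sets galactosylceramide synthesis against 1 of the sphingomyelin synthases. Its log2 ratio was 4.80, 5.03, 5.94, 2.00 and 4.89 at D1 and 1.28, 4.35, 3.54, 2.98 and 4.05 at M2. It was 0.99, 1.40, 3.12, 3.45 and 4.38 at M4 and 4.42, 3.67, 4.66, 0.68 and 3.61 at M6. In D1, 4 of 5 libraries were above all 15 later ones, and the mean was 4.53 ± 1.48 (SD, n = 5) at D1 and 3.10 ± 1.36 (SD, n = 15) later. The difference of -1.43 did not pass an exact two-sided permutation test over 15504 assignments (p = 0.0619, Benjamini-Hochberg adjusted p = 0.247 over 4 ratios). D1 replicate 4 decided this value. Without it the difference was -2.06 (exact permutation test, adjusted p = 0.0372), and without all 4 libraries lowest in the myelin mean it was -1.54 (adjusted p = 0.0220). Those libraries were picked on a measure that follows UGT8 and hold its 4 lowest values, so these 2 p values do not support a difference between stages.

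The other 3 ratios did not pass the exact two-sided permutation test either. CERS6 over CERS2, the balance of ceramide synthases, was -1.79 ± 1.39 at D1 and -1.49 ± 1.80 later, a difference of 0.31 (p = 0.731, adjusted p = 0.731 by the exact test). It ran from -4.45 in M6 replicate 3 to 2.66 in M4 replicate 1, and CERS6 exceeded CERS2 in the 4 libraries lowest in the myelin mean and in none of the other 16. SPTLC2 over SPTLC1 differed by 0.14 (exact permutation p = 0.445, adjusted p = 0.593), a difference that was -0.021 without D1 replicate 4. FA2H over UGT8 differed by 0.46 (exact permutation p = 0.202, adjusted p = 0.405), with -6.23 ± 0.43 at D1 and -5.77 ± 0.73 later. The 0.1 added to each FPKM value raises this last ratio in the libraries where FA2H is lowest.

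**Figure D3:**
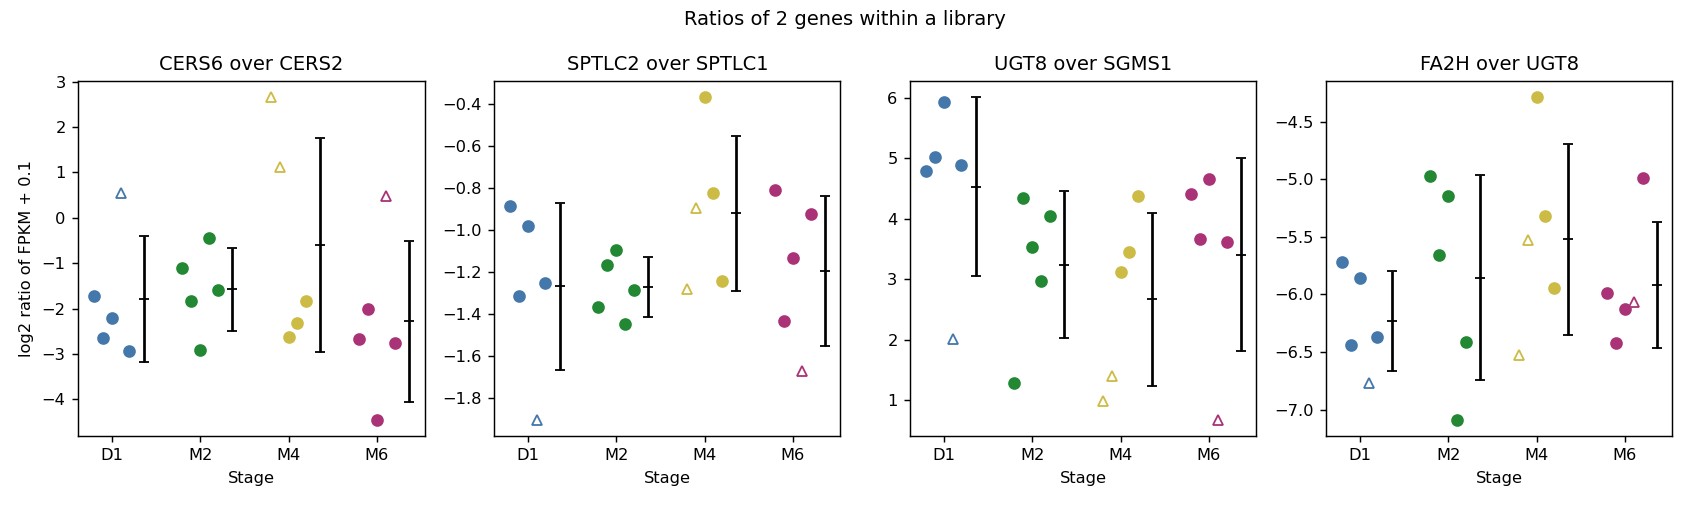
Log2 ratio of FPKM + 0.1 between paired genes (vertical axis) in each of the 20 libraries by stage, with the mean and SD of each stage beside the points. Open triangles mark the 4 libraries lowest in the myelin mean, which are the highest 4 for CERS6 over CERS2, and in UGT8 over SGMS1 the other 4 D1 libraries lie above all later ones.

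Most of the log2 variance of these genes lay within stages. With 1 library per goat, differences between goats, tissue pieces and libraries cannot be told apart in it. With few libraries per stage, this share is high even where stages do not differ. The share expected in that case and the share for all genes were not calculated, so the values are a description. The share of the log2 variance found within stages was 95.8% for FA2H, 92.3% for SGMS1, 90.7% for ASAH1, 86.9% for CERS2, 84.5% for UGT8 and 80.7% for CERS6. It was 76.9% for SGPP1, 70.2% for SPTLC2, 68.7% for DEGS1 and 63.5% for SPTLC1. The SD within stages on the log2 scale was 1.88 for FA2H, 1.55 for UGT8 and 1.204 for CERS2, larger than in 98.7%, 97.1% and 93.2% of the 13667 genes with a mean of at least 1 FPKM. The other 7 genes had an SD between 0.31 and 0.62, around the median of 0.50 for all these genes.

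Within stages, CERS2, UGT8 and FA2H moved with the mature myelin genes. Each gene was set against the mean of the 10 myelin genes after removal of the stage means, and correlations were tested with 100000 permutations within stages and adjusted over the 10 genes. Pearson's r was 0.99 for CERS2 (Spearman's rho 0.98, adjusted p = 5e-05), 0.99 for UGT8 (rho 0.96, adjusted p = 5e-05) and 0.95 for FA2H (rho 0.88, adjusted p = 0.0001). For CERS2 and UGT8 the unadjusted permutation p of 1e-05 is the smallest these permutations can give. M6 replicate 4 and D1 replicate 4 lay farthest from the median of the myelin mean after removal of the stage means. Leaving them out, r was 0.99, 0.98 and 0.92 in the same order. Over the 16 libraries without the 4 lowest, r was 0.97 for CERS2 (permutation adjusted p = 0.0023) and 0.92 for UGT8 (adjusted p = 0.0023), but 0.69 for FA2H (adjusted p = 0.103). The relation of FA2H thus did not pass the test without those 4 libraries, while those of CERS2 and UGT8 did. The r of CERS2, UGT8 and FA2H exceeded that of at least 99.5% of the 13667 genes.

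The other 7 genes had weaker relations with the myelin mean. Pearson's r was 0.78 for SPTLC2 (rho 0.74, permutation adjusted p = 0.0004), 0.65 for SGPP1 (rho 0.66, adjusted p = 0.00517) and 0.595 for DEGS1 (rho 0.56, adjusted p = 0.00517). CERS6 ran the other way, with r = -0.68 (rho -0.65, permutation adjusted p = 0.00517). SGMS1 (r = 0.47, rho 0.44, permutation adjusted p = 0.0913), SPTLC1 (r = 0.34, rho 0.44, adjusted p = 0.138) and ASAH1 (r = -0.185, rho -0.095, adjusted p = 0.431) did not pass. Without the 2 farthest libraries, r was 0.69 for SPTLC2, 0.62 for SGPP1, 0.50 for DEGS1 and -0.71 for CERS6, and 0.54, 0.45 and -0.18 for SGMS1, SPTLC1 and ASAH1. A total of 7 of the 10 genes passed over the 20 libraries and also without the 2 farthest, but only 2, CERS2 and UGT8, passed over the 16 libraries. In those 16, r was 0.57 for SPTLC2, 0.36 for SGPP1, 0.46 for DEGS1 and -0.49 for CERS6, and none of these 4 passed the permutation test, over fewer libraries and a narrower range of the myelin mean. The median r of the 10 genes was 0.62, against -0.089 for the 13667 genes. The r of SPTLC2, SGPP1 and DEGS1 exceeded that of 96.3%, 93.2% and 91.6% of these genes. For SGMS1, SPTLC1, ASAH1 and CERS6 it was 86.6%, 80.4%, 41.9% and 4.7%. The share of all genes that would pass the same permutation test was not calculated.

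**Figure D4:**
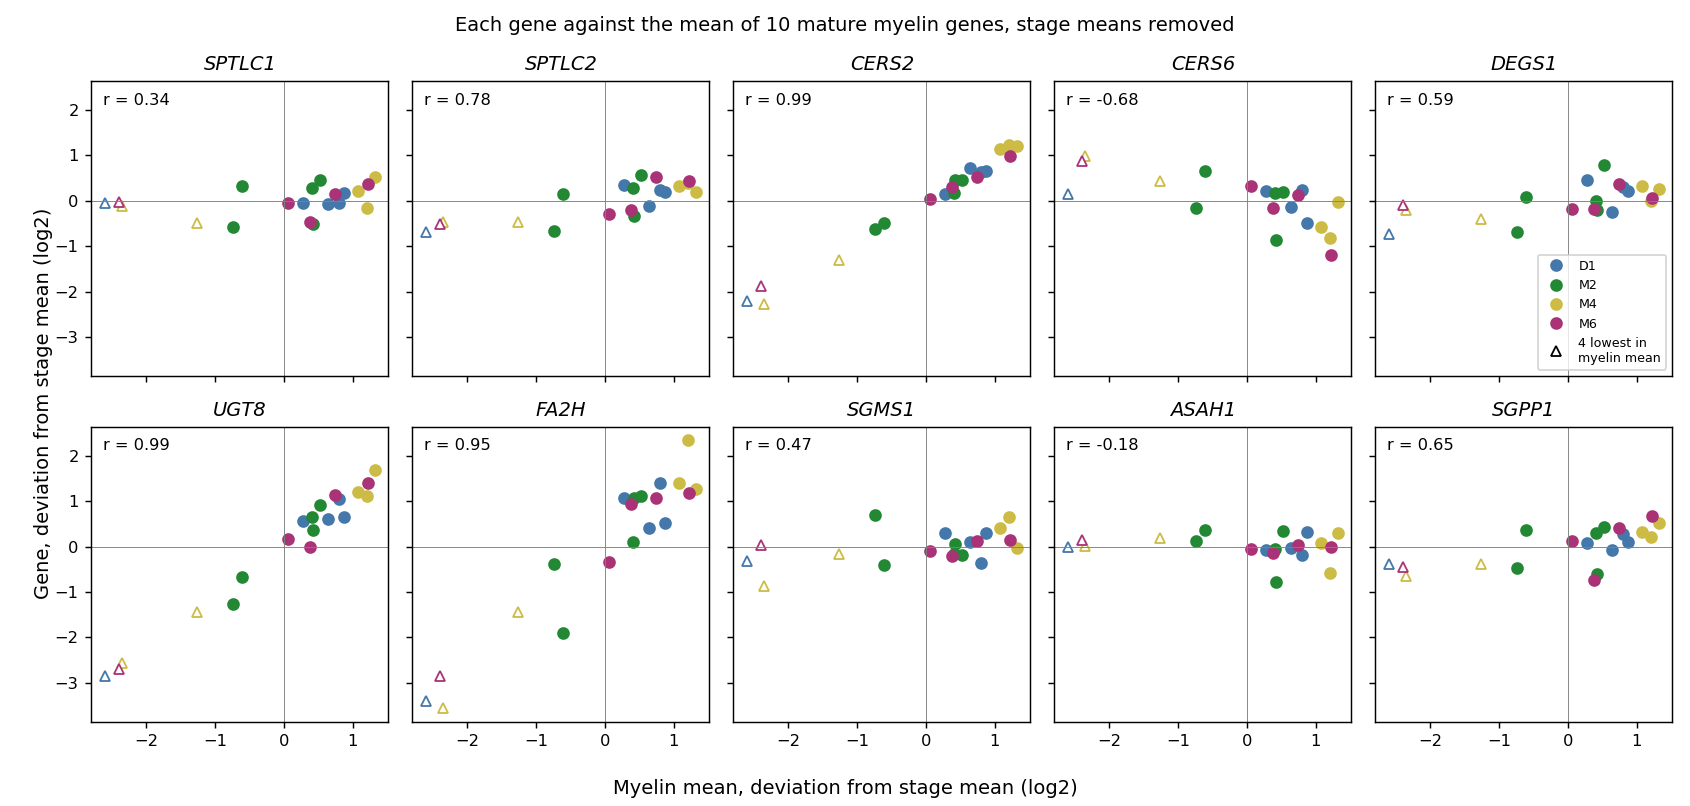
Deviation of each gene from its stage mean (vertical axis, log2) against the deviation of the mean of 10 mature myelin genes (horizontal axis, log2), with 1 point per library coloured by stage, open triangles for the 4 libraries lowest in the myelin mean and Pearson's r over the 20 libraries in each panel. CERS2 and UGT8 follow a line through all libraries (r = 0.99 each), CERS6 slopes downward (r = -0.68) and ASAH1 did not pass the test (r = -0.185).

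Among the 45 pairs of the 10 genes, 21 were correlated within stages in the permutation test adjusted over the 45 pairs, 17 of them positively. The highest values were found among CERS2, UGT8 and FA2H, with r = 0.98 for CERS2 and UGT8 (rho 0.91, permutation adjusted p = 0.0003), 0.95 for CERS2 and FA2H (rho 0.88, adjusted p = 0.0003) and 0.94 for UGT8 and FA2H (rho 0.87, adjusted p = 0.000563). By r, SPTLC2, DEGS1 and SGPP1 also passed with each other and with CERS2, UGT8 and FA2H, except for SGPP1 with FA2H. SPTLC1 passed by r with SPTLC2, DEGS1 and SGPP1 but not with CERS2, UGT8 or FA2H, and ASAH1 passed in no pair. By rho, SPTLC1 with UGT8 (0.56, permutation adjusted p = 0.032) and SGPP1 with FA2H (0.53, adjusted p = 0.0448) did pass. DEGS1 with CERS2 did not pass by rho (0.47, permutation adjusted p = 0.0787). Pearson's r was 0.835 for SPTLC2 and UGT8, 0.76 for SPTLC2 and CERS2 and 0.725 for SGPP1 and UGT8. It was 0.88 for SPTLC2 and DEGS1 (rho 0.84, permutation adjusted p = 0.0003), 0.85 for SPTLC2 and SGPP1 (rho 0.77, adjusted p = 0.00109) and 0.83 for SPTLC1 and SGPP1 (rho 0.84, adjusted p = 0.00118). Both subunits of serine palmitoyltransferase were less tightly related to each other, with r = 0.68 (rho 0.60, permutation adjusted p = 0.0102). All 4 negative pairs included CERS6, paired with FA2H (r = -0.70, rho -0.59), CERS2 (r = -0.70, rho -0.70), SGMS1 (r = -0.64, rho -0.66) and UGT8 (r = -0.61, rho -0.54). Their permutation adjusted p ran from 0.00675 to 0.0275 by r, and that of CERS6 and UGT8 was 0.0682 by rho.

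These pair relations depended in part on few libraries. Leaving out the 2 libraries farthest from the median of the myelin mean after removal of the stage means, 16 of the 45 pairs passed the permutation test. Over the 16 libraries without the 4 lowest, 3 pairs passed, with r = 0.91 for SPTLC1 and SGPP1 (permutation adjusted p = 0.00743), 0.87 for SPTLC2 and DEGS1 (adjusted p = 0.00743) and 0.86 for CERS2 and UGT8 (adjusted p = 0.0455). SPTLC1 and SGPP1 were thus related in libraries where neither followed the myelin mean past the threshold. M2 replicate 1 and M4 replicate 5 lay farthest on SPTLC1 after removal of the stage means. With these 2 left out instead, r of SPTLC1 and SGPP1 was 0.80.

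**Figure D5:**
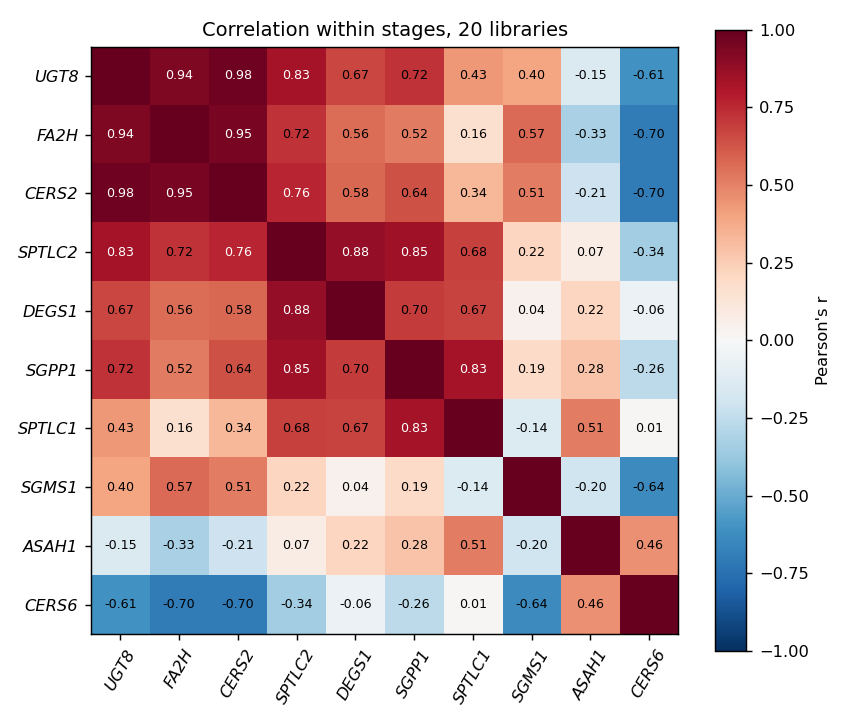
Pearson's r of log2(FPKM + 0.1) between each pair of the 10 genes over 20 libraries after removal of the stage means, coloured from -1 (blue) to 1 (red) with the value in each cell. UGT8, FA2H and CERS2 fill the upper left corner with r from 0.94 to 0.98, and the last row holds CERS6, negative in 7 of its 9 pairs, of which 4 passed the test.

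The genes most like each of the 10 were sought among the 13667 genes by r of the stage-centred values, as a description over 20 libraries. For UGT8 they included CLDN11 (r = 0.99) and MOG (0.99), both genes of myelin. CERS2 was most like CLDN11 (0.99), GPR37 (0.99) and ERBB3 (0.99), and FA2H like ARHGEF10 (0.98) and KCNJ10 (0.97). For CERS6 they were SLITRK3 (0.95), SLC4A10 (0.94) and EFR3A (0.94), genes known from neurons in the case of SLITRK3 and SLC4A10. SPTLC2 was most like SC5D (0.94), an enzyme of cholesterol synthesis, CLDND1 (0.92) and AGPS (0.92), an enzyme of ether lipid synthesis. For DEGS1 the list was EPCAM (0.89), SPTLC2 (0.88) and MAP1LC3B (0.88). SPTLC1 was most like SMU1 (0.96), TMBIM4 (0.95) and TMEM128 (0.93), and SGPP1 like SEPSECS (0.94), TMEM267 (0.94) and TMEFF1 (0.94). SGMS1 stood near EPAS1 (0.93), SUSD6 (0.93) and ZBED6 (0.92), and ASAH1 near PIGW (0.89), TBC1D19 (0.87) and PIN4 (0.85).

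The rest of the pathway was read from 4 lists. Of 23 other genes of synthesis 22 passed the filter on low values, as did 7 of 7 genes of regulation and lipid transfer, 22 of 22 genes of breakdown and salvage, and 4 of 5 receptors of sphingosine-1-phosphate. The 2 that did not pass were CERS3, with a mean of 0.00501 FPKM, and the receptor S1PR4, with 0.0320. In all 7 comparisons 0 of these 55 genes were called in limma. In M2 vs. D1 the unadjusted p was under 0.05 for 4 of 22, 1 of 7, 2 of 22 and 0 of 4 genes, against 15.6% of all genes. The median log2 fold change was -0.29, -0.26, -0.27 and 0.21 in the same order.

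The smallest adjusted p among them belonged to SPTSSA, the small activating subunit of serine palmitoyltransferase. It had a mean of 9.17 ± 2.93 FPKM at D1 and 3.11 at M2, a log2 fold change of -1.62 (SE 0.42, limma adjusted p = 0.138). SAMD8, a relative of the sphingomyelin synthases, was at -0.81 in M2 vs. D1 (SE 0.23, limma adjusted p = 0.148). SGMS2, the other sphingomyelin synthase, went the other way and is named after its values were seen. Its mean was 5.37 ± 1.31, 17.9 ± 9.05, 8.89 ± 6.55 and 5.13 ± 2.28 FPKM from D1 to M6 (SD, n = 5). On the log2 scale the difference was 1.57 in M2 vs. D1 (SE 0.48, limma adjusted p = 0.164) and -1.81 in M6 vs. M2 (adjusted p = 0.746). Among regulators, COL4A3BP, the ceramide transfer protein, was at -0.49 in M2 vs. D1 (limma adjusted p = 0.262) and ORMDL2, an inhibitor of serine palmitoyltransferase, at -0.34 in the later stages vs. D1 (0.509). In breakdown, ALDH3A2, a fatty aldehyde dehydrogenase, was at -0.67 (limma adjusted p = 0.246) and the sphingomyelinase SMPD4 at 0.94 (0.271) in M2 vs. D1. Of the receptors, S1PR2 was at 0.80 in M2 vs. D1 (limma adjusted p = 0.369) and S1PR5 at 0.91 in the later stages vs. D1 (adjusted p = 0.4995). By mean FPKM the highest genes of the lists were ELOVL6 (36.5), COL4A3BP (21.8), PSAP (61.1) and S1PR1 (19.03), and the lowest that passed in regulation and breakdown were PLEKHA8 (5.10) and ACER1 (0.130).

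Several of these genes also moved with the myelin mean within stages. In the same permutation test, adjusted over the 55 genes, 13 passed with a positive and 5 with a negative r, a test added after the data were seen. The highest were GLTP, which carries glycolipids between membranes (r = 0.975), ELOVL1, which elongates very long acyl chains (0.97), ELOVL7 (0.93), the ceramidase ACER3 (0.93), GALC, which removes the galactose from galactosylceramide (0.89), and the receptor S1PR5 (0.88). GAL3ST1, which makes sulfatide from the product of UGT8, was at 0.81. Spearman's rho of the first 6 of these lay between 0.85 and 0.96, and r without the 2 farthest libraries between 0.85 and 0.97. The negative ones were B4GALNT1 (-0.75), B4GALT6 (-0.67) and UGCG (-0.53), enzymes of the glucosylceramide and ganglioside branch, SMPD3 (-0.70) and PLEKHA8 (-0.60), with rho from -0.83 to -0.56 and, without the 2 farthest libraries, r from -0.66 to -0.34. Other listed genes of that branch, B4GALT5 (-0.545), ST3GAL5 (-0.12) and ST8SIA1 (0.22), did not pass. Over the 16 libraries without the 4 lowest in the myelin mean, 0 of the 55 genes passed in the permutation test, with r = 0.86 for GLTP and 0.78 for ELOVL1. The median r of the 55 genes was 0.069, against -0.089 for the 13667 genes. How many of all genes would pass the same test was not calculated, so the counts of 13 and 5 have no background beside them.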

How the data were processed

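One file was used, holding the FPKM of 21071 genes in 20 libraries. The authors calculated these deposited FPKM values after trimming with fastp, alignment to ARS1.2 with HISAT2 2.0.5 and assembly with StringTie 1.3.3b, and the counts behind them were not analysed here. Libraries were grouped by the stage in their labels. The filter kept genes that reached 0.1 FPKM in 5 or more libraries, which left 16771 of 21071 and all 10 genes described. On the log2(FPKM + 0.1) scale, limma 3.58.1 in R 4.3.3 was fitted across all genes with stage as group and a variance trend. Adjustment followed Benjamini and Hochberg and covered every gene tested. A fold change on this scale understates that of low genes. Ratios were tested with exact permutation tests and correlations with permutations within stages, in Python 3.11.15 (numpy 2.4.6, pandas 2.3.3, scipy 1.17.1; plots by matplotlib 3.10.9). The limma script was checked on simulated data. The genes and lists were chosen with earlier results of these data known. The 10 genes, the 2 genes of each list with the smallest adjusted p (no gene of a list was called), the highest and lowest of each list, and the 3 genes most like each of the 10 (symbol other than LOC, mean of at least 1 FPKM) were named, 2 of which are not reported here. ASAH2 and PRL had no match by symbol in the annotation and were left out of their lists, and COL4A3BP is the older symbol under which the ceramide transfer protein was matched. GLTP and the other genes named for their correlation with the myelin mean were chosen after their values were seen. Alternatives were the pseudocount, the filter, 2 other scalings, a fit without a trend, weights for library quality, a replicate block, mapping rate (from the study's supplement) in the model, these last 2 at once, the adjusted p alone, only the compared stages, and leaving out libraries. With 5 goats per stage, P values cover the spread between these goats.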

Additional observations from a re-analysis of the deposited data

Results flagged for a closer look

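Of 40 groups of 5 libraries, formed by the 10 genes and 4 stages, 1 held a library far from the others by Dixon's test, where chance alone flags about 1 in 20. SPTLC1 in D1 replicate 5 was at 67.8 FPKM, with the nearest of the other D1 libraries at 58.3, so that the gap made up 0.916 of the range of the group against a critical value of 0.71. The other 4 D1 libraries lay within 57.5 to 58.3 FPKM.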

How the results depend on the processing

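In all 7 comparisons, 0 of the 10 genes were called by limma under every alternative that was fitted, including the replicate block. The share called among all genes was at most 1.33%, so a count of 0 among 10 says little about these genes. SPTLC1, SPTLC2, CERS2, DEGS1, UGT8, FA2H and SGPP1 kept a lower value in M2 and in the later stages than in D1 under all alternatives. CERS6 and ASAH1 were lower than in D1 in the main fit but higher under some alternatives. SGMS1 was higher in the main fit but lower under some alternatives. The cause of these changes of sign was not tested. The sizes varied, with SPTLC1 between -0.767 and -0.334 in M2 vs. D1. Before adjustment, limma placed 3 of the 10 below 0.05 there in the main fit. It placed 0 there with the mapping rate in the model or with quantile normalization. Library quality weights gave 4, and leaving out the 4 libraries lowest in the myelin mean gave 7. For all genes tested the share was 15.6% in the main fit, 6.12% with the mapping rate, 13.4% with quantile normalization and 18.4% with quality weights. With the mapping rate in the model, CERS6 was at 0.605, SGMS1 at -0.39 and ASAH1 at 0.11 on the log2 scale in M2 vs. D1, and at 0.50, -0.21 and 0.11 in the later stages vs. D1. With the mapping rate and the replicate block together, CERS6 was at 0.73 and 0.60 and SGMS1 at -0.71 and -0.46 in these 2 comparisons. Quantile normalization gave 0.14 and 0.087 for ASAH1, and library quality weights -0.041 for SGMS1 in M2 vs. D1. Leaving out 1 library moved SGMS1 in M2 vs. D1 between -0.037 (without M2 replicate 1) and 0.24, and ASAH1 between -0.25 and 0.035 (without M2 replicate 3, also with M6 replicate 3 left out too). The difference of UGT8 over SGMS1 lay between -2.06 and -1.08 with 1 library left out, past the threshold only without D1 replicate 4, and was -1.54 and past it without the 4 libraries lowest in the myelin mean, which are also the 4 lowest in UGT8. That of SPTLC2 over SPTLC1 lay between -0.021 and 0.23 with 1 library left out, and was -0.005 with M2 alone set against D1. Without the 4 libraries, 2 rather than 7 genes were correlated with the myelin mean and 3 rather than 21 pairs with each other, over fewer libraries. Across all alternatives these counts reached at most 9 and 24. With 1 library left out they lay between 7 and 8 and between 19 and 23. With the replicate block these counts were 6 and 19, the difference of UGT8 over SGMS1 was -1.43 in both analyses, and no other call changed. Libraries with the same number were not paired, since their deviations had a median r of -0.011 over 30 pairs against 0.004 over 120 pairs of different numbers. Counts over all genes changed with the setting. Library quality weights called 148, 65, 95 and 223 genes in M2, M4, M6 and the later stages vs. D1, against 0, 9, 1 and 10, and leaving out the 4 libraries gave 41, 17, 33 and 50. Without D1 replicate 4 the counts were 10, 32, 20 and 35, and the lowest under any alternative was 0 in each.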
